A study of Mus musculus with 23 samples.

Results

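The genes described here are 8 components of Trem2 receptor signalling in mouse microglia, namely the receptor *Trem2*, its adaptors *Tyrobp* and *Hcst*, the kinase *Syk*, the phospholipase *Plcg2*, the lipid kinase subunit *Pik3cg*, the exchange factor *Vav1* and the phosphatase *Inpp5d*. They were picked by gene symbol, and all 8 were found among the 18876 genes of the count table. All 8 were among the 18759 genes tested.

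CD11b-positive cells were taken from the hippocampi of female mice and their RNA was sequenced in bulk, with 1 library per sample. The study asked whether lowering *Slc11a2*, which encodes the iron importer DMT1, in microglia changes the response to amyloid. Control WT (n = 6) and Control APP/PS1 mice (n = 6 used of 7) were gavaged with corn oil. Slc11a2 KD WT (n = 5) and Slc11a2 KD APP/PS1 mice (n = 5) received 4 mg of tamoxifen a day for 5 days at 5 to 6 months of age, and cells were isolated at 15 to 18 months.

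Every mouse, Controls included, carried *Slc11a2* fl/fl and Cx3cr1 Cre-ERT2 +/- on a mixed 129S;C57BL/6J background, and the APP/PS1 mice were hemizygous for that transgene, which carries a chimeric mouse and human APP and a mutant presenilin-1. Cre was driven from the *Cx3cr1* locus, which is active in microglia and in other myeloid cells. Tamoxifen was given to the knockdown groups and to no Control group, so that the drug and the knockdown cannot be told apart. Groups are named as in the study. The labels write KO for the Slc11a2 KD mice and WT for the mice called Control here, and their Control means a mouse without APP/PS1. Libraries are called by their number in the labels, which differs for every mouse. The numbers were not balanced over the groups, since the Controls used were numbered from 5 to 17, Slc11a2 KD WT 1, 2, 3, 19 and 22, and Slc11a2 KD APP/PS1 4, 18, 20, 21 and 23.

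Total counts ran from 31128643 to 54872491 per library. Over the whole gene, *Slc11a2* was not lower in the knockdown groups, with 34.2 ± 4.75 CPM (counts scaled to the library total) in Slc11a2 KD WT, 35.1 ± 5.13 in Control WT, 56.5 ± 13.5 in Slc11a2 KD APP/PS1 and 43.2 ± 3.93 in Control APP/PS1 (SD). A count over the whole gene also takes reads from outside the floxed exons, and so does not check the deletion. *Prnp*, whose promoter drives the transgenes, was between 14.1 and 25.0 CPM in APP/PS1 libraries and between 1.74 and 12.3 CPM in WT libraries. The 7 microglial markers, *P2ry12* and *Tmem119* among them, summed to at least 26820.4 CPM in each of the 22 libraries, whereas 6 detected T and NK cell markers summed to between 3.03 and 31.5 CPM. RNA of other cells was present in addition, with 4 oligodendrocyte markers between 285 and 3321 CPM and 10 choroid plexus markers between 1.09 and 1978 CPM.

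Trem2 is a surface receptor of microglia that binds lipids and lipoproteins, and it has no signalling tail of its own. It pairs with the adaptor Tyrobp (also called DAP12), which is phosphorylated by Src family kinases and then recruits Syk, while the adaptor Hcst (DAP10) links the same receptor to PI3 kinase. Syk and PI3 kinase feed into phospholipase C gamma 2, Vav1 and Akt, and the phosphatase SHIP1, encoded by *Inpp5d*, removes the lipid that PI3 kinase makes. In brains with amyloid the pathway is known for the gathering of microglia around plaques and for a set of response genes.

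The promoters are shown because several members share a myeloid motif. Whether the motif bears on the levels of these genes was not tested. GAGGAA is the core of the site bound by PU.1, the transcription factor that sets the myeloid lineage. Searched on both strands of the 300 bases from 250 before to 50 after the start of the canonical transcript, of the 7 members other than *Tyrobp*, whose promoter is left out here, it was present in *Trem2*, *Syk*, *Inpp5d*, *Pik3cg* and *Vav1*, not in *Hcst* or *Plcg2*, and it was present in 27.7% of 14341 promoters of protein-coding genes in the table. The longer GAGGAAGT, which contains the first motif, was present in *Inpp5d*, *Pik3cg* and *Vav1* among the same 7, and in 3.05% of all promoters. TGANTCA, a loose form of the AP-1 site that allows any base at its centre, was found in *Trem2* alone among these 7 members. It was found in 5.54% of all promoters. In *Trem2* the match read TGAATCA, with A at the centre, where the AP-1 site has C or G. A match is a description of the letters and not a shown binding site. The part from 100 bases before to 25 after the start is given below for 3 members, read from GRCm39 on the strand of the gene, 5′ to 3′, with GAGGAA or its reverse complement in capitals.
Trem2, chr17:48653329-48653453, plus strand: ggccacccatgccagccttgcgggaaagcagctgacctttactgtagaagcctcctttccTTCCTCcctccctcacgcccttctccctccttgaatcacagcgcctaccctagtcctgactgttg
Inpp5d, chr1:87547934-87548058, plus strand: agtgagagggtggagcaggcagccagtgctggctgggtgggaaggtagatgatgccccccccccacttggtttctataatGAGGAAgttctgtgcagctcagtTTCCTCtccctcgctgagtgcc
Vav1, chr17:57585995-57586119, plus strand: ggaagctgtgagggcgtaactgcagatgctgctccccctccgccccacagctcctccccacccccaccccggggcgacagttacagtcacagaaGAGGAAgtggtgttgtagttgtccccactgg

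The receptor and its main adaptor were the most abundant members. Per kb of the canonical transcript, the mean over the 22 libraries was 2408 CPM for *Tyrobp*, 1657 for *Trem2* and 93.9 for *Inpp5d*. It was 50.4 CPM per kb for *Vav1*, 45.3 for *Hcst*, 28.2 for *Pik3cg*, 22.2 for *Plcg2* and 13.2 for *Syk*. The receptor and its main adaptor were thus far more abundant per length than any of the enzymes below them. Every member had at least 217 counts in each library.

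The members also fall into 2 classes of transcript length. *Hcst* (460 bp), *Tyrobp* (607 bp) and *Trem2* (1088 bp) have short canonical transcripts, and those of *Vav1* (4172 bp), *Plcg2* (4340 bp), *Inpp5d* (4937 bp), *Syk* (5876 bp) and *Pik3cg* (5883 bp) are long. Length bears on what follows, because the libraries differed in how their counts were spread over transcript length. This was measured as a length slope, the change in log2 CPM, relative to the gene's mean over all libraries, for each doubling of transcript length, over 7885 genes. A negative slope means relatively more counts on short transcripts.

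The length slope was between 0.0298 and 0.179 in Control WT libraries and between -0.0467 and 0.221 in Control APP/PS1 libraries. In Slc11a2 KD WT it was 0.159, 0.256 and 0.326 in libraries 1, 2 and 3, -0.0502 in library 19 and -0.308 in library 22. Among Slc11a2 KD APP/PS1 libraries it was 0.145 in library 4, -0.118 in library 18, -0.281 in library 20, -0.543 in library 21 and -0.465 in library 23. The knockdown groups therefore covered a much wider range than the Controls, and the lowest slopes were those of Slc11a2 KD APP/PS1.

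*Trem2* (ENSMUSG00000023992, chr17:48653429-48661175, plus strand, 5 exons) was called in both comparisons of APP/PS1 with WT given below. In Control WT its level ran from 1315 to 1777 CPM with a median of 1395. In Control APP/PS1 it ran from 1751 to 2435 CPM with a median of 2014. These groups overlapped only through library 14 of Control WT, at 1777 CPM, since the other 5 Control WT libraries were at or below 1469.5 CPM.

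In Slc11a2 KD WT, *Trem2* was at 1481, 1191, 1224, 1329 and 1460.0 CPM in libraries 1, 2, 3, 19 and 22. In Slc11a2 KD APP/PS1 it was at 2156, 2262, 2540.1, 2798 and 2130.5 CPM in libraries 4, 18, 20, 21 and 23. Every Slc11a2 KD APP/PS1 library was above every Slc11a2 KD WT library, a separation in that direction shown by 4.18% of all genes tested. The spread within a group was modest, with a coefficient of variation between 9.89% and 12.0%.

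*Tyrobp* (ENSMUSG00000030579, chr7:30113170-30117010, plus strand, 5 exons) encodes the adaptor that carries the signal of Trem2 and of several other receptors. In Control WT it ran from 1104 to 1452 CPM with a median of 1198, and in Control APP/PS1 from 1405 to 1714 CPM with a median of 1599. The Slc11a2 KD WT libraries had 1172, 979.8, 924, 1369 and 1703 CPM (in libraries 1, 2, 3, 19 and 22). The Slc11a2 KD APP/PS1 libraries had 1409, 1707, 1888, 2267 and 1824 CPM (in libraries 4, 18, 20, 21 and 23). Both pairs of groups overlapped, and within Slc11a2 KD WT the highest library (22) and the lowest (3) were also the libraries of the lowest and the highest length slope.

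*Hcst* (ENSMUSG00000064109, chr7:30117135-30119297, minus strand, 4 exons) encodes the second adaptor and lies tail to tail with *Tyrobp*, with 124 bp between them. Whether reads were counted by strand is not given in the sources used here. Its level ran from 11.9 to 16.1 CPM in Control WT (median 12.9) and from 15.8 to 33.4 CPM in Control APP/PS1 (median 27.96). Its values in Slc11a2 KD WT were 10.9, 6.91, 5.69, 12.0 and 24.3 CPM (in libraries 1, 2, 3, 19 and 22). Its values in Slc11a2 KD APP/PS1 were 23.7, 29.5, 36.2, 46.4 and 26.1 CPM (in libraries 4, 18, 20, 21 and 23). The groups overlapped in each genotype comparison through 1 library, library 7 of Control APP/PS1 at 15.8 CPM and library 22 of Slc11a2 KD WT at 24.3 CPM.

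**Figure D1:**
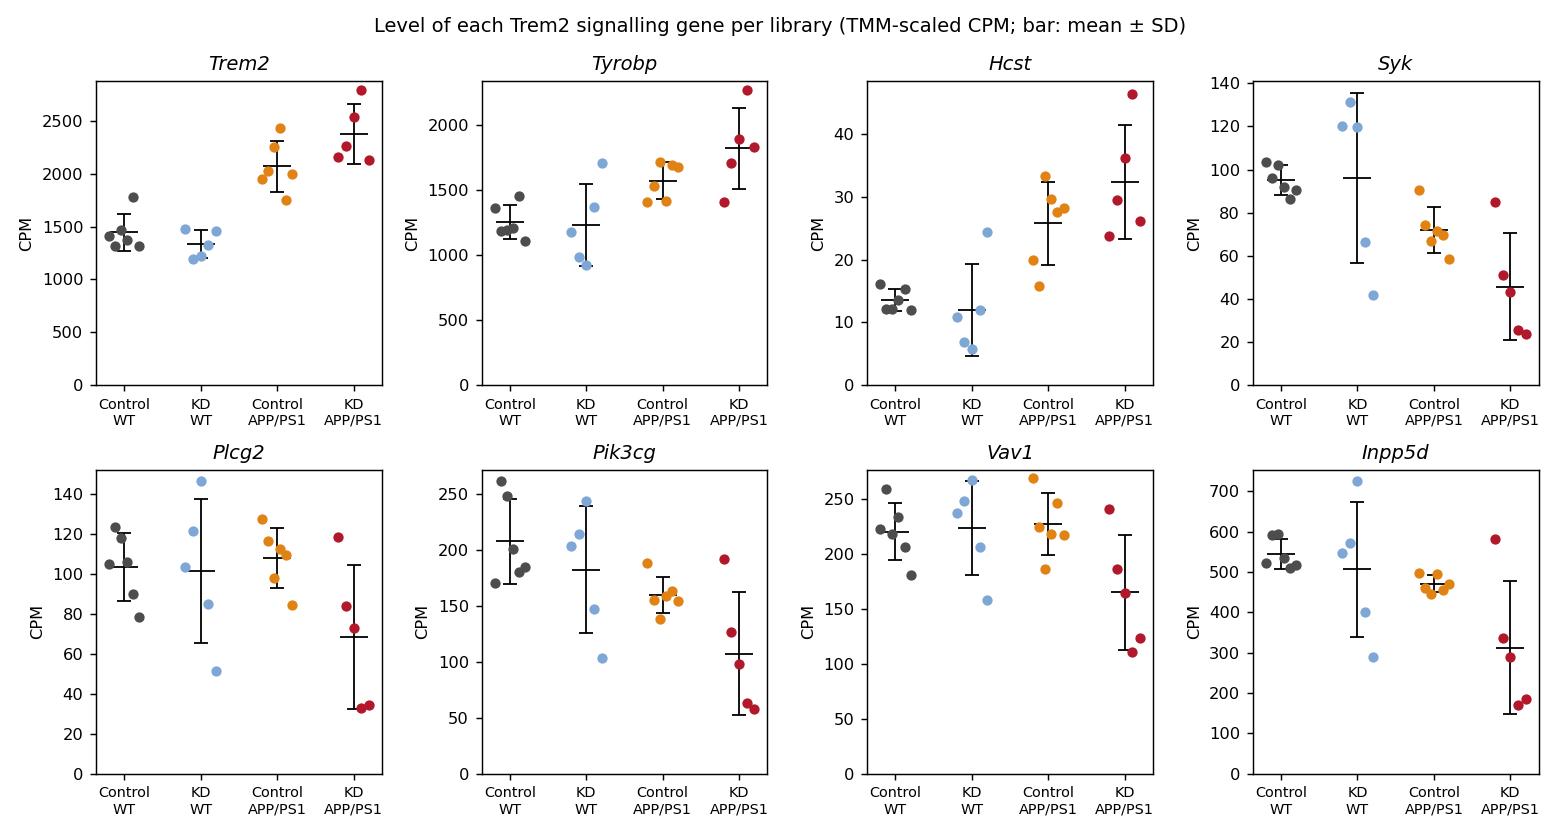
Level of each of the 8 genes in every library (points, TMM-scaled CPM, axis from 0), with the group mean ± SD (bars), for Control WT (n = 6), Slc11a2 KD WT (n = 5), Control APP/PS1 (n = 6) and Slc11a2 KD APP/PS1 (n = 5). Points run in the order of library number from left to right within a group. *Trem2* is higher in both APP/PS1 groups, whereas *Syk*, *Plcg2*, *Pik3cg*, *Vav1* and *Inpp5d* spread widely within the knockdown groups.

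*Syk* (ENSMUSG00000021457, chr13:52736696-52802828, plus strand) encodes the kinase that docks on phosphorylated Tyrobp. It ran from 86.3 to 104 CPM in Control WT (median 93.9) and from 58.3 to 90.3 CPM in Control APP/PS1 (median 70.6). Levels of 120.1, 132, 119.8, 66.2 and 41.8 CPM were found in Slc11a2 KD WT (in libraries 1, 2, 3, 19 and 22). Levels of 84.8, 51.2, 43.3, 25.5 and 23.8 CPM were found in Slc11a2 KD APP/PS1 (in libraries 4, 18, 20, 21 and 23). Library 4 was thus at the level of the Controls, and libraries 21 and 23 were below every other library.

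*Plcg2* (ENSMUSG00000034330, chr8:118224988-118361881, plus strand) encodes the phospholipase that acts after Syk. It ran from 78.2 to 123 CPM in Control WT and from 84.4 to 127 CPM in Control APP/PS1, so that the Control groups largely coincided. In Slc11a2 KD WT the libraries lay between 51.6 and 146 CPM, and in Slc11a2 KD APP/PS1 between 32.8 and 118 CPM. Library 22 was the lowest of the first group, and libraries 21 (32.8 CPM) and 23 (34.5 CPM) the lowest of the second.

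*Pik3cg* (ENSMUSG00000020573, chr12:32223472-32258659, minus strand) encodes the catalytic p110 gamma subunit of PI3 kinase. It ran from 169.8 to 261 CPM in Control WT and from 138 to 188 CPM in Control APP/PS1. In Slc11a2 KD WT it was at 203, 214, 244, 147 and 103 CPM in libraries 1, 2, 3, 19 and 22. In Slc11a2 KD APP/PS1 it was at 191, 126, 97.6, 63.5 and 57.7 CPM in libraries 4, 18, 20, 21 and 23. The order of the libraries was close to that of *Syk*.

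*Vav1* (ENSMUSG00000034116, chr17:57586095-57636235, plus strand) encodes an exchange factor that activates Rac. It ran from 181 to 259 CPM in Control WT, from 186 to 269 CPM in Control APP/PS1, from 158 to 268 CPM in Slc11a2 KD WT and from 111 to 241 CPM in Slc11a2 KD APP/PS1. In the knockdown groups it varied less than the other long members, with a coefficient of variation of 31.6% in Slc11a2 KD APP/PS1, against 54.2% for *Syk* and 52.5% for *Plcg2*.

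*Inpp5d* (ENSMUSG00000026288, chr1:87547989-87648230, plus strand) encodes SHIP1, which opposes PI3 kinase. It was the most even member in the Controls, from 509 to 595 CPM in Control WT and from 447 to 498 CPM in Control APP/PS1. Every Control APP/PS1 library was below every Control WT library, a separation in that direction shown by 3.03% of all genes tested. Values in Slc11a2 KD WT were 547, 573, 725, 401 and 288 CPM (in libraries 1, 2, 3, 19 and 22). Values in Slc11a2 KD APP/PS1 were 582, 337, 288, 172 and 185 CPM (in libraries 4, 18, 20, 21 and 23). The spread in the knockdown groups thus exceeded the whole range of the Controls.

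Comparing Control APP/PS1 with Control WT asks what the amyloid transgenes do in mice that had no tamoxifen. *Trem2* and *Hcst* rose and the other 6 members did not pass the test, that is, an edgeR p-value adjusted over all 18759 genes of under 0.05. These 2 of 8 members stand beside 10.5% of all genes called in either direction (5.99% higher and 4.48% lower). The median log2 fold change was 0.05 over the members and -0.02 over all genes tested. In bulk RNA, fewer cells of a type and less RNA per cell cannot be told apart.

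The mean level of *Trem2* was 2069.6 ± 240.2 CPM with APP/PS1 against 1445 ± 173 CPM without (SD over 6 mice on each side), which is 1.43-fold (edgeR, log2 fold change 0.52, SE 0.10, adjusted p = 0.00141). *Hcst* was at 25.8 ± 6.58 against 13.5 ± 1.78 CPM, a 1.91-fold difference (edgeR, log2 fold change 0.93, SE 0.26, adjusted p = 0.0233). The rise of *Hcst* in this comparison lay close to the threshold. It was no longer called without Control APP/PS1 library 11 (adjusted p = 0.0632), without Control APP/PS1 library 13 (0.0512), or without Control WT library 15 (0.0516). Without both Control WT libraries 12 and 15, those with the most choroid plexus RNA, the adjusted p for *Hcst* was 0.0991.

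*Tyrobp* gave a log2 fold change of 0.33 (SE 0.13, adjusted p = 0.122), and with only these 2 groups in the fit it passed (0.34, adjusted p = 0.0102). *Syk* gave -0.40 (SE 0.26, adjusted p = 0.376) and *Pik3cg* -0.38 (SE 0.23, adjusted p = 0.344), and both passed in the fit of these 2 groups alone (edgeR, adjusted p = 0.00884 and 0.0341). The fit of these 2 groups alone called 5 members and 18.6% of all genes. By limma voom 3 members were called, *Tyrobp* (0.31, adjusted p = 0.0207) beside *Trem2* and *Hcst*, with 18.2% of all genes called.

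*Inpp5d* gave -0.21 (SE 0.22, adjusted p = 0.648), although its Control groups did not overlap (exact permutation test on CPM, two-sided, p = 0.00216, the smallest the design allows, 1 of 32 such tests over members and comparisons and not adjusted). *Plcg2* gave 0.06 (SE 0.25) and *Vav1* 0.04 (SE 0.16), both with adjusted p above 0.9. Their 95% intervals, from -0.43 to 0.56 for *Plcg2* and from -0.27 to 0.35 for *Vav1*, still allow differences of the size seen for *Trem2* in the first case.

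With an offset for transcript length and GC content fitted to each library, *Trem2* gave 0.30 (SE 0.11, adjusted p = 0.0571) and lost its call, whereas *Syk* gained one (-0.46, SE 0.15, adjusted p = 0.0388). *Tyrobp* gave 0.0034 (SE 0.083, adjusted p = 0.990) with that offset. With the length slope as a covariate in its place, *Trem2* gave 0.49 (adjusted p = 0.000135) and *Tyrobp* passed (0.25, adjusted p = 0.00806). The median log2 fold change of genes with transcripts under 1500 bp was 0.23 in this comparison, and that of genes over 5000 bp was -0.02. Summed microglial markers were also lower in Control APP/PS1 (26820.4 to 30791 CPM) than in Control WT (35528 to 40625 CPM), and so were the sums of 5 markers of border-associated macrophages (63.0 to 154 against 161 to 345 CPM) and of 3 endothelial markers (74.6 to 99.6 against 121 to 234 CPM), although *Flt1* of the latter had the higher mean (41.3 against 17.6 CPM). The sum of 4 astrocyte markers was higher (34.1 to 98.8 against 4.36 to 19.3 CPM), through *Gfap* (mean 55.1 against 3.68 CPM), while *Aldoc* (6.65 against 9.75 CPM) and *Gja1* (0.387 against 1.08 CPM) had lower means. None of these 4 sums overlapped between the groups. Their part in the members' levels was not tested.

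**Figure D2:**
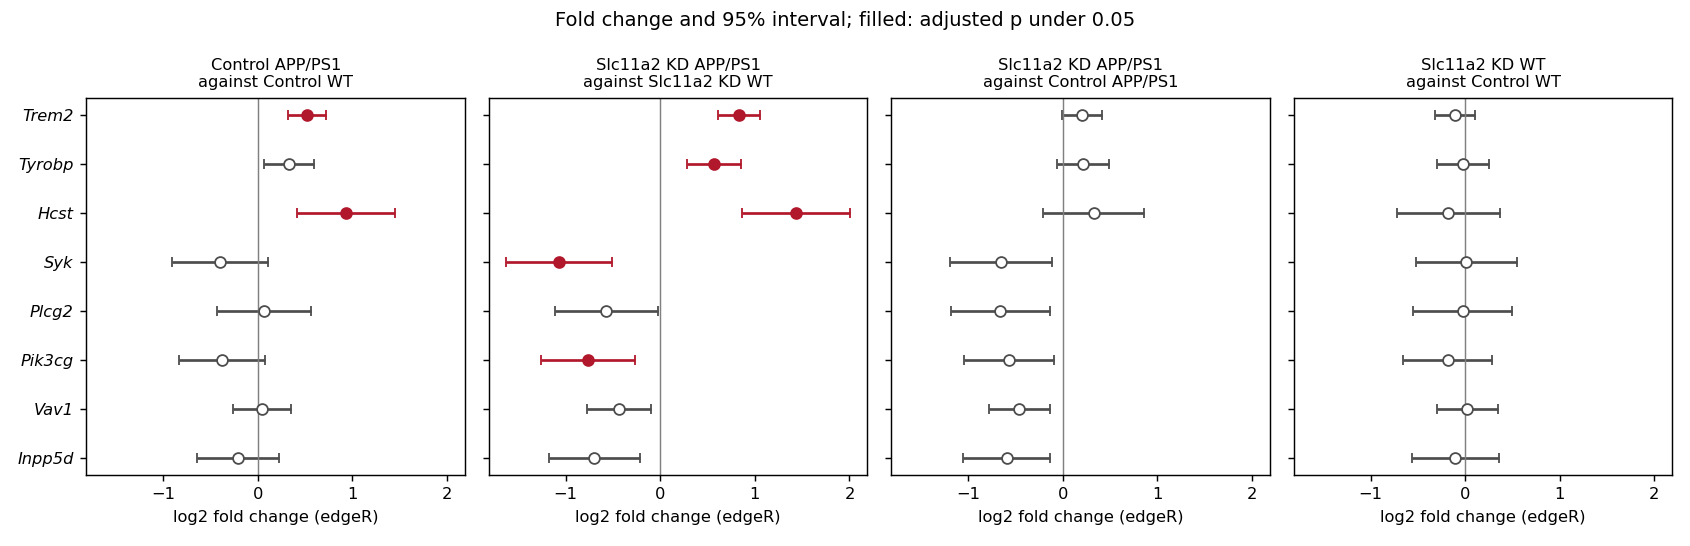
Log2 fold change (edgeR, points) and 95% interval (bars) of each of the 8 genes in 4 comparisons, filled where the adjusted p was under 0.05. *Trem2* and *Hcst* are called in Control APP/PS1 against Control WT, 5 genes are called in Slc11a2 KD APP/PS1 against Slc11a2 KD WT, and none in the comparisons of knockdown with Control.

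Comparing Slc11a2 KD APP/PS1 with Slc11a2 KD WT asks the same question in the tamoxifen mice. *Trem2*, *Tyrobp* and *Hcst* rose and *Syk* and *Pik3cg* fell, while *Plcg2*, *Inpp5d* and *Vav1* did not pass the test. These 5 of 8 members compare with 16.2% of all genes called (9.77% higher and 6.41% lower). The median log2 fold change was -0.50 over the members and -0.07 over all genes tested. DESeq2 and limma voom each called 7 members, *Inpp5d* and *Vav1* as well as these 5, with 21.1% and 23.5% of all genes called. With only these 2 groups in the edgeR fit, 2 members were called, *Trem2* (adjusted p = 0.00301) and *Hcst* (0.0360), beside 6.10% of all genes. *Tyrobp* (0.0963), *Syk* (0.125) and *Pik3cg* (0.204) were not.

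Summed markers of cell types differed between these groups too. The microglial sum was lower in Slc11a2 KD APP/PS1 (29674 to 33563 CPM) than in Slc11a2 KD WT (36147 to 41221 CPM), and so was that of border-associated macrophages (86.0 to 146 against 167 to 428 CPM). The astrocyte sum was higher (40.4 to 122 against 9.28 to 19.9 CPM), through *Gfap* alone (mean 50.4 against 4.56 CPM), and the other 3 astrocyte markers had lower means. None of these 3 sums overlapped. Their part in the members' levels was not tested.

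*Trem2* was 1.78-fold higher (2377 ± 286 against 1337 ± 132 CPM, SD, n = 5 each, edgeR, log2 fold change 0.83, SE 0.11, adjusted p = 2.22e-05). *Tyrobp* was 1.48-fold higher (log2 fold change 0.56, SE 0.15, adjusted p = 0.00999). *Hcst* was 2.705-fold higher (32.4 ± 9.14 against 12.0 ± 7.41 CPM, log2 fold change 1.44, SE 0.29, adjusted p = 0.00173). The receptor and both adaptors thus rose together in this comparison.

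Of the enzymes, *Syk* was 2.10-fold lower (45.7 ± 24.8 against 95.9 ± 39.5 CPM, edgeR, log2 fold change -1.07, SE 0.29, adjusted p = 0.0127), and *Pik3cg* was 1.70-fold lower (107 ± 54.5 against 182 ± 56.3 CPM, log2 fold change -0.76, SE 0.25, adjusted p = 0.0415). *Inpp5d* gave -0.70 (SE 0.24, adjusted p = 0.0532), *Plcg2* -0.57 (SE 0.28, adjusted p = 0.163) and *Vav1* -0.44 (SE 0.17, adjusted p = 0.0855). All 5 enzymes therefore had lower means in Slc11a2 KD APP/PS1, with overlap between the groups for each of them.

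Single libraries moved these calls. Without library 4 of Slc11a2 KD APP/PS1, or without library 22 of Slc11a2 KD WT, all 8 members passed, beside 25.6% and 23.7% of all genes tested in the same fits. *Inpp5d* passed without library 19 of Slc11a2 KD WT (adjusted p = 0.0449). *Pik3cg* lost its call without any one of libraries 1, 2 and 3 of Slc11a2 KD WT (edgeR, adjusted p = 0.0858, 0.1000 and 0.125) or libraries 20, 21 and 23 of Slc11a2 KD APP/PS1 (0.0900, 0.122 and 0.113). *Trem2*, *Tyrobp*, *Hcst* and *Syk* kept their calls in each of the 10 fits that left out 1 library of the groups compared.

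The calls of the enzymes also moved with library number. With library numbers 18 to 23 as a covariate, *Trem2* (0.78), *Tyrobp* (0.37) and *Hcst* (1.17) kept their calls, whereas *Syk* (-0.57, SE 0.18, adjusted p = 0.0501) and *Pik3cg* (-0.42, SE 0.19, adjusted p = 0.185) lost theirs, beside 9.45% of all genes called. Within libraries 18 to 23 alone, of which 4 were Slc11a2 KD APP/PS1 and 2 Slc11a2 KD WT, 0 members and 2.09% of all genes were called by edgeR. At an unadjusted p under 0.05 that fit had 2 members, beside 13.6% of all genes. *Trem2* was then at 0.79 (adjusted p = 0.0562) and *Syk* at -0.59 (adjusted p = 0.491).

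The fold changes also moved with transcript length. In this comparison the median log2 fold change was 0.60 over 1042 genes under 1500 bp, 0.16 from 1500 to 3000 bp, -0.12 from 3000 to 5000 bp and -0.39 over 1985 genes above 5000 bp. *Tyrobp*, at 0.56, was below the median of its length class, and *Trem2* and *Hcst* were above it. *Syk* and *Pik3cg* were below the median of the class above 5000 bp, and *Plcg2*, *Inpp5d* and *Vav1* were below that of the class from 3000 to 5000 bp.

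With the offset for length and GC content, *Tyrobp* changed sign (-0.16, SE 0.09, adjusted p = 0.269) and *Trem2* lost its call (0.31, SE 0.12, adjusted p = 0.0731). *Hcst* (0.75, adjusted p = 0.00258), *Syk* (-0.80, adjusted p = 0.00141) and *Pik3cg* (-0.50, adjusted p = 0.0271) stayed past the threshold in that fit, and *Inpp5d* passed it (-0.50, adjusted p = 0.0247). With the length slope as a covariate the pattern was different. *Trem2* (0.71, SE 0.11, adjusted p = 9.11e-05) and *Hcst* (0.94, SE 0.20, adjusted p = 0.00352) passed, and no enzyme did, the largest being *Syk* at -0.26 (SE 0.11, adjusted p = 0.156). Without libraries 21 and 23, which had the lowest slopes, only *Trem2* and *Hcst* passed, and *Syk* was at -0.68 (adjusted p = 0.146). Of all genes, 14.6% passed with the offset, 9.50% with the length slope and 6.47% without these libraries. Of the 8 members, *Hcst* alone was called in this comparison in all 3 of these fits and in the fit without them, and the fall of the enzymes depended on which was used.

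**Figure D3:**
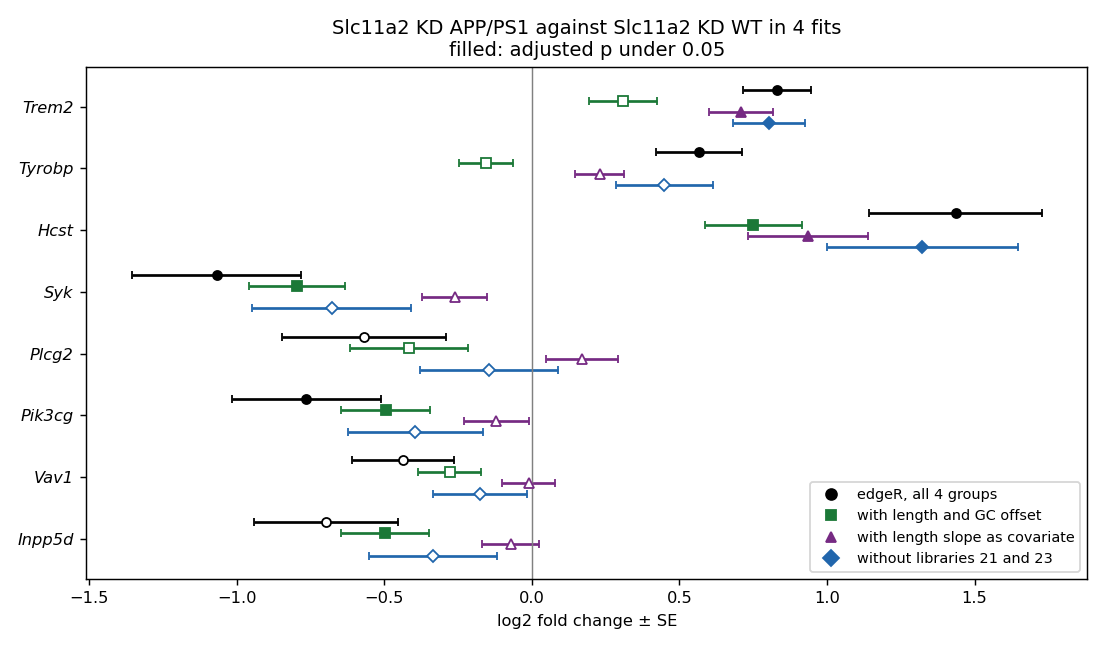
Log2 fold change ± SE (horizontal axis) of each of the 8 genes for Slc11a2 KD APP/PS1 against Slc11a2 KD WT in 4 fits by edgeR, filled where the adjusted p was under 0.05. *Hcst* is filled in each fit, *Tyrobp* lies at 0.56 without and at -0.16 with the length and GC offset, and the enzymes lie between -0.26 (*Syk*) and 0.17 (*Plcg2*) with the length slope as a covariate.

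The same order of libraries ran through the enzymes. Over the 22 libraries, log2 CPM of *Syk*, *Plcg2*, *Inpp5d*, *Pik3cg* and *Vav1* correlated with one another with Pearson's r between 0.89 and 0.98, and *Tyrobp* with *Hcst* at 0.93, whereas *Tyrobp* and *Syk* gave -0.87. These points share libraries and scaling, and the values are a description. With the length slope of the library, r was 0.97 for *Syk* and *Inpp5d*, 0.96 for *Pik3cg*, 0.94 for *Plcg2* and *Vav1*, -0.86 for *Tyrobp*, -0.74 for *Hcst* and -0.59 for *Trem2*. Within the 12 Control libraries it was between 0.55 and 0.78 for the enzymes.

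Among the 7897 genes with a mean of at least 10 CPM, those most like *Syk* over the libraries included *Wnk1* and *Frmd4a* (r of 0.98 each), with transcripts of 11376 and 6309 bp. Those most like *Tyrobp* were *Iah1*, *Tbca* and *Chmp1a* (r of 0.97 each), with transcripts of 1182, 654 and 2169 bp. *Trem2* was most like *Cd63*, *Cd9* and *Fabp5* (r of 0.96, 0.95 and 0.95), of which *Cd9* is one of the response genes below. After group means were taken off, the 3 genes most like *Trem2* were *Snhg6*, *Gpr137b* and *Ncbp2as2*, with r of 0.765, 0.751 and 0.745. For *Plcg2* the 3 genes were then *Hcfc1*, *Tln1* and *Dock2*, with r of 0.986, 0.982 and 0.977.

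**Figure D4:**
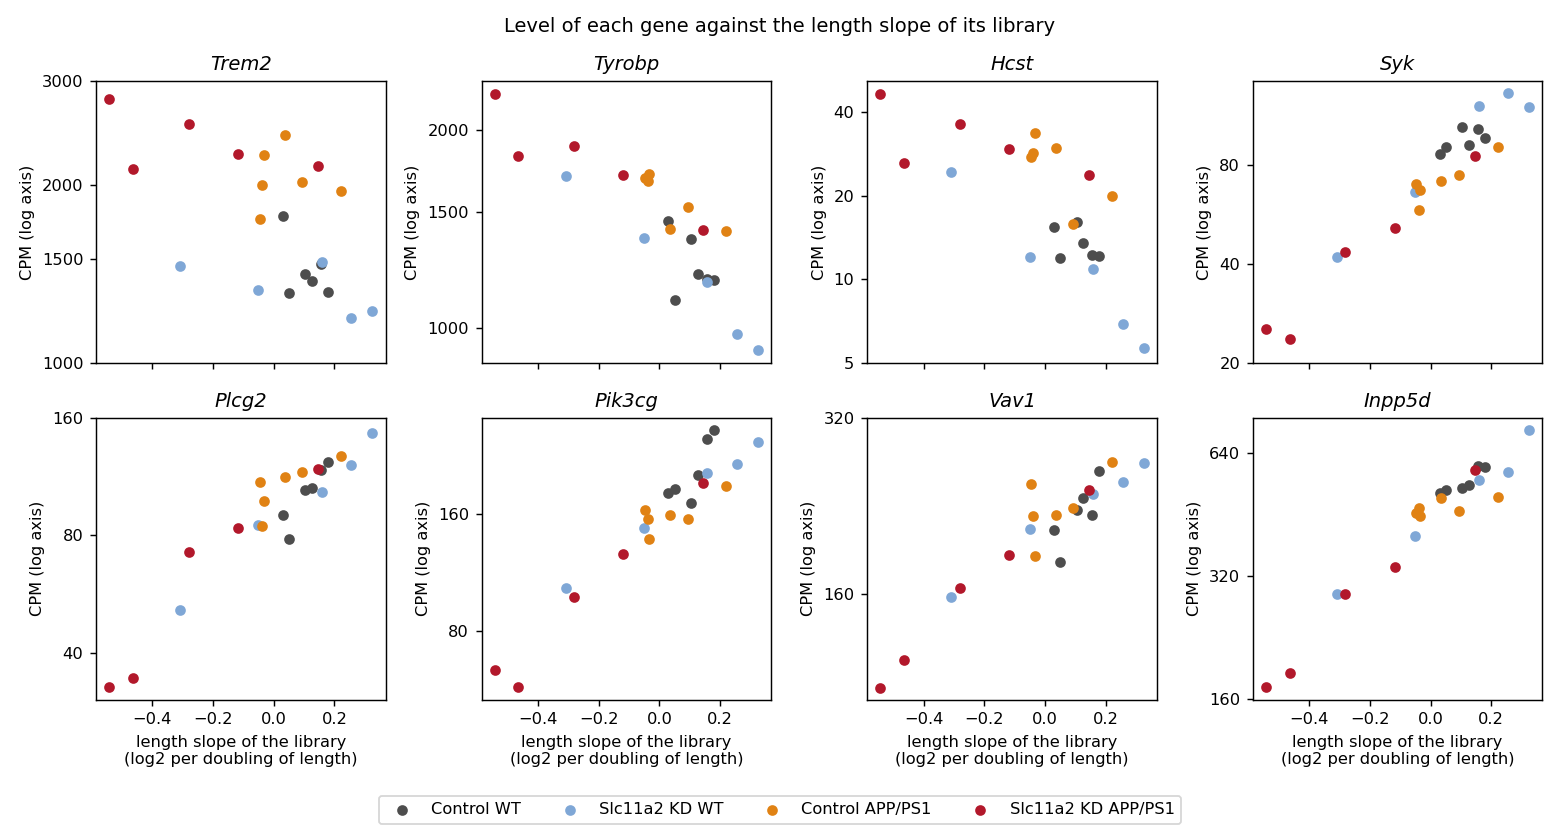
Level of each of the 8 genes (CPM, log axis) against the length slope of its library (log2 change per doubling of transcript length), 1 point per library, coloured by group. *Syk*, *Plcg2*, *Pik3cg*, *Vav1* and *Inpp5d* rise along the axis, *Tyrobp* and *Hcst* fall, and the APP/PS1 points of *Trem2* lie above the WT points across most of the range.

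Comparing Slc11a2 KD APP/PS1 with Control APP/PS1 asks what knockdown does in the presence of amyloid. By edgeR 0 of 18759 genes passed, so 0% of all genes and 0 of 8 members were called (smallest adjusted p over all genes 0.205). At an unadjusted p under 0.05 there were 3862 genes, or 20.6%, and 5 of the 8 members (9.74% of all genes were both at such a p and lower). DESeq2 called 580 genes and limma voom 2, with no member among them.

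The 5 members at an unadjusted p under 0.05 were the enzymes, all with lower means in Slc11a2 KD APP/PS1. The log2 fold change was -0.65 for *Syk* (SE 0.27), -0.66 for *Plcg2* (SE 0.27), -0.59 for *Inpp5d* (SE 0.24), -0.57 for *Pik3cg* (SE 0.24) and -0.46 for *Vav1* (SE 0.17). *Trem2* gave 0.20 (SE 0.11), *Tyrobp* 0.21 (SE 0.14) and *Hcst* 0.33 (SE 0.27), and their 95% intervals all included 0. The median over the members was -0.52, against 0.01 over all genes tested.

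Other measures moved with this difference. Choroid plexus markers summed to 281, 343, 87.3 and 492 CPM in libraries 18, 20, 21 and 23, to 2.30 CPM in library 4 and to between 1.30 and 5.39 CPM in Control APP/PS1. Their part in the enzymes' levels was not tested. With library numbers 18 to 23 as a covariate *Syk* (0.22), *Plcg2* (0.027), *Inpp5d* (0.11) and *Pik3cg* (0.11) changed sign and *Vav1* was at -0.036, none of them at an unadjusted p under 0.05. No Control library had such a number, and library 4 was the only Slc11a2 KD APP/PS1 library without one. The shift between library numbers in that fit therefore came from the knockdown groups alone.

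This comparison depended on single libraries. Without library 4, edgeR called 3069 genes (16.4%) and all 5 enzymes, with log2 fold changes between -0.999 for *Syk* and -0.63 for *Vav1* and adjusted p between 0.0202 and 0.0221. Without libraries 21 and 23 in its place, 577 genes (3.10%) and 0 members were at an unadjusted p under 0.05. Without library 21 alone 1 member was at such a p (8.59% of all genes), and without library 23 alone 1 member (12.1%). With any other 1 library left out, 3 to 6 members were. With Control APP/PS1 library 10 kept, 0 members were, beside 7.20% of all genes. The median log2 fold change was 0.46 for genes under 1500 bp and -0.38 for genes over 5000 bp, so that the 3 short members lay below the median of their length class. With the length and GC offset, *Trem2* (-0.10), *Tyrobp* (-0.23) and *Hcst* (-0.13) changed sign, and the enzymes lay between -0.49 (*Plcg2*) and -0.28 (*Vav1*), all with adjusted p above 0.2. At an unadjusted p under 0.05 that fit had 6 members, the enzymes and *Tyrobp*, among 2999 such genes of the 18759 tested. With the length slope as a covariate the enzymes lay between -0.12 (*Inpp5d*) and -0.05 (*Syk*).

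Comparing Slc11a2 KD WT with Control WT asks what knockdown does without amyloid, and no member passed the test. By edgeR 0 of 18759 genes passed (0%), with 1110 genes (5.92%) and 0 members at an unadjusted p under 0.05. DESeq2 called 10 genes and limma voom 1, with no member among them. The log2 fold changes of the members ran from -0.19 for *Pik3cg* (SE 0.24) to 0.02 for *Vav1* (SE 0.17). For *Trem2*, the most precise, the value was -0.11 with a 95% interval from -0.32 to 0.10, and for *Hcst* it was -0.18 with an interval from -0.72 to 0.36.

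The interaction asks whether the effect of APP/PS1 differed between tamoxifen and corn-oil mice. By edgeR 0 genes passed (0%), with 1703 genes (9.08%) and 0 members at an unadjusted p under 0.05. DESeq2 called 25 genes and limma voom 1, with no member among them. At an unadjusted p under 0.05 limma voom had 7 of the 8 members (18.0% of all genes), and edgeR had 6 without library 4 (20.8%) and 6 without library 22 (18.8%). The estimate for *Trem2* was 0.31 (SE 0.15, adjusted p = 0.544) and that for *Vav1* was -0.48 (SE 0.23, adjusted p = 0.544). The larger fold changes of the members in the tamoxifen mice were therefore not shown to differ from those in the corn-oil mice.

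A wider list of 77 pathway genes was set beside the members, of which 76 were tested. In Control APP/PS1 against Control WT, 20 rose and 4 fell, beside 5.99% of all genes higher and 4.48% lower, with a median log2 fold change of -0.02 against -0.02 over all genes tested. The list includes 12 response genes known to depend on Trem2, of which 10 rose, and without them 10 of 64 rose and 4 fell. The number of the 76 that fell moved with the fit, to 8 by DESeq2, 12 by limma voom, 11 with the length and GC offset, and 14 both with only these groups in the fit and with the length slope as a covariate, while 20 to 26 rose. Among all genes tested the number that fell moved too, from 841 to 1306, 1342, 1237, 1267 and 1532 in the same order. The number of all genes that rose moved from 1124 to between 1238 and 2185. Of the 76, 2 fell without Control WT libraries 12 and 15, beside 497 of all genes. Without any one of Control APP/PS1 libraries 5, 7 and 11 or Control WT library 15, 2 fell as well, beside 622 to 678 of all genes. The largest rises were those of *Gpnmb*, a membrane glycoprotein (7.01, SE 1.19), *Cst7*, a cathepsin inhibitor (4.96, SE 0.54), and *Clec7a*, the receptor dectin-1 (3.50, SE 0.32). The largest falls were those of *Clu*, which encodes clusterin (-1.48, SE 0.47), *Prkcd*, a protein kinase C (-0.52, SE 0.12), and *Siglech*, another receptor that uses Tyrobp (-0.47, SE 0.12).

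By role, 2 of the 3 ligands tested rose and 1 fell, and 1 of the 8 other receptors that use Tyrobp or Hcst rose and 1 fell. Of the 5 Src family kinases, 2 rose and 1 fell, and of the 9 negative regulators 2 rose. Of 6 genes of the phospholipase and calcium branch and 5 GTPases and exchange factors, 0 passed in either direction. These counts by role are a description, with no test of their own.

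In Slc11a2 KD APP/PS1 against Slc11a2 KD WT, 18 of the 76 rose and 14 fell, beside 9.77% of all genes higher and 6.41% lower, with a median log2 fold change of -0.18 against -0.07 over all genes tested. The rises again included 11 of the 12 response genes, led by *Gpnmb* (7.69, SE 1.357), *Cst7* (5.38, SE 0.61) and *Lpl*, lipoprotein lipase (3.89, SE 0.59). The falls were all outside the response genes. They were led by *Pik3r1* (-1.28, SE 0.29) and *Pik3r5* (-1.02, SE 0.28), regulatory subunits of PI3 kinase of which the latter binds the product of *Pik3cg*, and by *Lyn*, a Src family kinase (-0.94, SE 0.23). Of the 12 genes of the PI3 kinase and Akt branch 2 fell and 1 rose, and of the 9 negative regulators 3 fell and 1 rose.

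The number that fell depended on the libraries. It was 28 without library 4, 9 without library 3 of Slc11a2 KD WT, 3 without libraries 21 and 23, 6 with the length slope as a covariate and 1 with only these 2 groups in the fit, while the number that rose stayed between 17 and 21 in these fits. The number that fell among all genes moved in the same way, from 1202 to 2352, 756, 394, 622 and 303 in the same order. In the comparisons of knockdown with Control and in the interaction, 0 of the 76 passed by edgeR, whereas DESeq2 called 1 higher and 4 lower in Slc11a2 KD APP/PS1 against Control APP/PS1, beside 3.09% of all genes. In Slc11a2 KD APP/PS1 against Control APP/PS1 the smallest unadjusted p-values were those of *Apoe*, a ligand of Trem2 (log2 fold change -1.12, SE 0.29, adjusted p = 0.205), *Lcp2*, the adaptor SLP-76 (-0.47, SE 0.13), and *Pik3cd*, the p110 delta subunit (-0.64, SE 0.21). Without library 4, 4 of the list rose and 27 fell in that comparison, beside 1373 and 1696 of the 18700 genes tested.

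In Slc11a2 KD WT against Control WT the smallest were those of *Ctsl*, cathepsin L (-0.54, SE 0.14, adjusted p = 0.715), *Itgax*, CD11c (-1.14, SE 0.42), and *Csf1*, a growth factor of microglia (-0.96, SE 0.37). In the interaction they were those of *Apoe* (-1.30, SE 0.41, adjusted p = 0.544), *Ctsl* (0.55, SE 0.19) and *Pik3cb*, the p110 beta subunit (-0.59, SE 0.24).

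**Figure D5:**
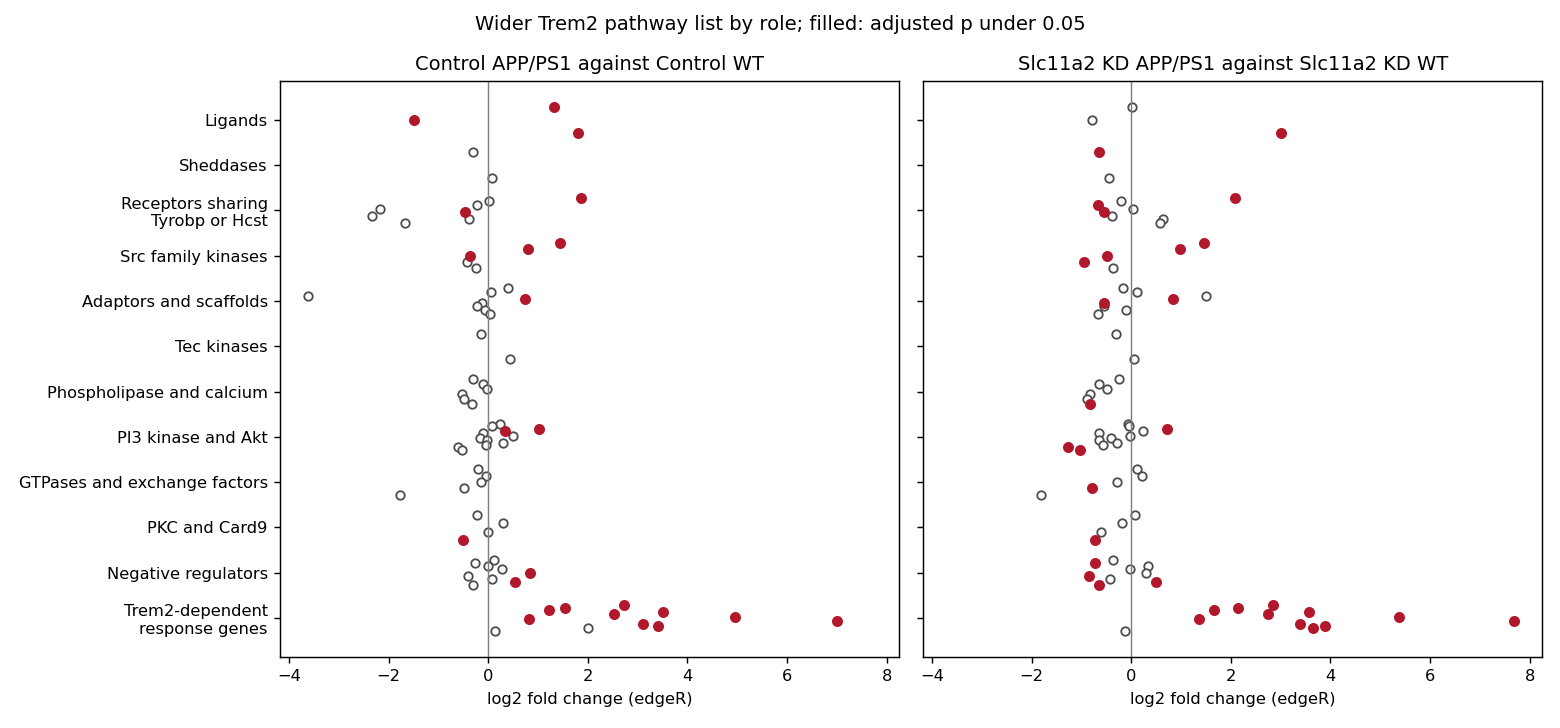
Log2 fold change (edgeR, horizontal axis) of the 76 tested genes of the wider list, by role (rows), for APP/PS1 against WT in the corn-oil groups (left) and the tamoxifen groups (right), filled where the adjusted p was under 0.05. Filled response genes all lie to the right of 0 (10 of 12 on the left panel, 11 of 12 on the right), and the filled points to the left of 0 number 4 on the left panel and 14 on the right, an order that turned with only the groups compared in the fit (14 and 1) and with the length slope as a covariate (14 and 6). The falls among all genes tested turned in the same way (841 and 1202, then 1267 and 303, and 1532 and 622).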

How the data were processed

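Per the study's methods and notes, the authors trimmed reads with Trim Galore 0.6.7, aligned them to mm39 with STAR against a GENCODE annotation, and deposited raw counts per gene for 23 samples. They also deposited a normalized signal, counts divided by DESeq2 1.36.0 size factors, which was used only to check the raw counts. The strand setting of the counting is not given in the sources used here. The study left 1 Control APP/PS1 sample out of its analyses as an outlier on a principal component. Library 10 was taken to be that sample, since it is missing from the heat map of the study, and leaving it out gave 22 samples.

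Genes that reached 5 counts in 3 or more samples (18759 of 18876) were fitted in 1 model of 4 groups by the edgeR 4.0.16 quasi-likelihood test with TMM scaling, in R 4.3.3, with p-values adjusted over all genes by Benjamini and Hochberg and a threshold of 0.05. Intervals are 1.96 SE on each side. Per-library levels are TMM-scaled CPM computed from the deposited counts. Exact permutation tests were two-sided and made on CPM. DESeq2 1.42.0 and limma 3.58.1 (voom with a quality weight for each library) were alternatives. Total counts of 31128643 to 54872491 per library gave every member at least 217 counts, and with replicates from separate mice the spread between samples, not counting error, set the precision.

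Genes were matched by Ensembl identifier to GRCm39 (GENCODE M39, 18731 of 18876 matched) for lengths and promoters. The authors' release was an earlier one. The exons of *Trem2*, *Plcg2* and *Inpp5d* overlap those of other genes in M39, and how such reads were assigned was not tested.

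The members and gene lists were chosen with earlier results of these data known. Besides the 8 members, the text names the 3 genes of the wider list with the largest called change in each direction, or with the smallest p where none was called, and the 3 genes most like a member by Pearson correlation of log2 CPM. The fitting step was tested on data simulated for Slc11a2 KD APP/PS1 against Slc11a2 KD WT. There edgeR called 7% of 100 genes changed 1.5-fold and 56% of 100 genes changed 2-fold, with 3 false calls. Alternatives (36 settings, of which 22 left out 1 library) changed the tool, scaling, filter, samples and covariates. The length slope and the leaving out of libraries 20 to 23, or 21 and 23, were added after seeing the data. Some items are not reported here.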

Additional observations from a re-analysis of the deposited data

Results flagged for a closer look

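In Control WT, *Trem2* in library 14 (1777 CPM) stood apart from the other 5 libraries, the highest of which was at 1469.5 CPM, and passed Dixon's test. It was the only such library among 32 combinations of gene and group tested, and chance alone gives about 1 in 20. Without it the log2 fold change of *Trem2* in Control APP/PS1 against Control WT was 0.59 (edgeR, adjusted p = 0.000421), against 0.52 with it.

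Control APP/PS1 library 10, which the comparisons did not use, had 2905 CPM of *Trem2*, 2471 CPM of *Tyrobp* and 48.1 CPM of *Hcst* (scaled over all 23 samples), each above every Control WT library. Its *Syk* was at 40.1 CPM, its *Plcg2* at 47.4, its *Inpp5d* at 243, its *Pik3cg* at 81.3 and its *Vav1* at 116 CPM. With this library kept, 0 members were at an unadjusted p under 0.05 in Slc11a2 KD APP/PS1 against Control APP/PS1 (edgeR), against 5 without it. Of all genes 7.20% were at such a p with it and 20.6% without it.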

How the results depend on the processing

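Of the fold changes of single members, 399 kept direction and side of the threshold under alternatives other than leaving out 1 library, 33 changed sign, 28 lost a call and 12 gained one. With 1 library left out these numbers were 485, 22, 9 and 12. The cause was not tested. No paired analysis was possible because library numbers are unique across groups.

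In Control APP/PS1 against Control WT, 2 members were called. The count was 0 with a log2 change above 1 also asked for, 5 with only the groups compared in the fit, 3 by limma voom, 3 with the length slope as a covariate, 1 without Control WT libraries 12 and 15, and 1 to 2 with 1 library left out. *Plcg2* was at -0.055 and *Vav1* at -0.061 with library 10 kept, and *Plcg2* was at -0.013 without libraries 12 and 15. With 1 library left out *Plcg2* ran from -0.0041 to 0.12 and *Vav1* from -0.011 to 0.095. The genes called, 1965 in all, were 3421 by limma voom, 918 with a log2 change above 1, 3241 with only these groups, 3717 with the length slope as a covariate and 1282 without libraries 12 and 15.

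In Slc11a2 KD APP/PS1 against Slc11a2 KD WT, 5 members were called. The count was 2 with a log2 change above 1, 3 with library numbers 18 to 23 as a covariate, 2 with only the groups compared, 0 with library numbers 18 to 23 only, 2 without libraries 20 to 23, 2 without 21 and 23, 2 with the length slope, and 4 to 8 with 1 library left out. *Tyrobp* was at -0.16 with the length and GC offset and *Plcg2* at 0.17 with the length slope. The genes called, 3034 in all, were 1105, 1773, 1041, 327, 981, 1205 and 1783 under these settings in the same order, and 1977 to 4781 with 1 library left out.

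In Slc11a2 KD APP/PS1 against Control APP/PS1 the count of members was 0 to 5 with 1 library left out. *Trem2* (-0.10), *Tyrobp* (-0.23) and *Hcst* (-0.13) changed sign with the offset, *Tyrobp* (-0.22), *Hcst* (-0.42), *Syk* (0.22), *Plcg2* (0.027), *Inpp5d* (0.11) and *Pik3cg* (0.11) with library numbers 18 to 23 as a covariate, *Tyrobp* (-0.017) without libraries 20 to 23, and *Tyrobp* (-0.11) and *Hcst* (-0.23) with the length slope. In the interaction, *Tyrobp* was at -0.16 with the offset and -0.022 with the length slope, and *Pik3cg* at 0.028 without libraries 20 to 23 and 0.094 with the length slope.

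In Slc11a2 KD WT against Control WT, where no member was called, *Syk* was at -0.00069 by DESeq2 and with its size factors, at -0.021 with the offset, at -0.017 without libraries 12 and 15, and at -0.024 with the length slope. *Plcg2* was at 0.019 by limma voom, 0.30 with library numbers as a covariate and 0.14 without libraries 20 to 23. *Inpp5d* was at 0.24 with that covariate and 0.040 without libraries 20 to 23, *Pik3cg* at 0.14 with library numbers as a covariate, and *Vav1* at -0.020 without libraries 12 and 15. With 1 library left out the ranges were -0.18 to 0.064 for *Tyrobp*, -0.62 to 0.00051 for *Hcst*, -0.13 to 0.19 for *Syk*, -0.19 to 0.13 for *Plcg2*, -0.27 to 0.030 for *Inpp5d* and -0.052 to 0.11 for *Vav1*.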
